A study of Homo sapiens with 12 samples.

Results

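The 9 genes of the route from Dectin-1 to NF-κB were read out in NCM460, a human intestinal epithelial cell line, and were taken by gene name from a table of 58735 genes. They are the receptor CLEC7A (Dectin-1), the signalling enzymes SYK, PLCG2 and PRKCD, the scaffolds CARD9, CARD10 and CARD14, and the adaptor BCL10 with its partner MALT1. All 9 of 9 names matched 1 row each. The 12 libraries fall into 4 groups of 3: cells in medium, cells given TNF-α, cells given TNF-α with 5-OH-TMT (the labels call it Bufotenidine, a trimethylated form of serotonin), and cells given TNF-α with HTRA2, a mitochondrial serine protease, knocked down by siRNA. All groups but medium carried TNF-α. The labels give no dose or time and do not say whether the TNF-α libraries received the control siRNA that the study describes, so transfection and lower HTRA2 cannot be told apart here. All 3 knockdown libraries are described alike, with no word on whether they came from 1 siRNA or several.

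Dectin-1 is a C-type lectin that binds β-glucans of fungal walls and carries a tyrosine motif in its tail. In myeloid cells the motif recruits the kinase SYK, phospholipase C-γ2 makes diacylglycerol, protein kinase C-δ phosphorylates CARD9, and CARD9 joins BCL10 and the paracaspase MALT1 into a filament that activates NF-κB. The CARD coiled-coil scaffolds are alternatives at the same step: CARD9 is known from myeloid cells, CARD10 (CARMA3) from epithelial and other non-blood cells downstream of G protein-coupled receptors and EGFR, and CARD14 (CARMA2) from keratinocytes. The question here was which of these scaffolds the epithelial cells carry RNA for.

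The promoters of 3 members are shown because they stood for the ends of the range measured here: CARD10, the member scaffold with the most RNA, CARD9, the one with the least, and BCL10, the member that rose with TNF-α. Each is the 250 bases before the RefSeq start on GRCh38.p14, read on the gene's own strand, which is minus for all 3. Capitals mark the GC box, GGGCGG on either strand with overlapping matches counted. The windows lie at chr22:37519416-37519665 for CARD10, chr9:136373670-136373919 for CARD9 and chr1:85276633-85276882 for BCL10. By the GENCODE 29 gene positions given below, the BCL10 window lies wholly inside its gene. Those of CARD10 and CARD9 lie partly inside theirs.
CARD10: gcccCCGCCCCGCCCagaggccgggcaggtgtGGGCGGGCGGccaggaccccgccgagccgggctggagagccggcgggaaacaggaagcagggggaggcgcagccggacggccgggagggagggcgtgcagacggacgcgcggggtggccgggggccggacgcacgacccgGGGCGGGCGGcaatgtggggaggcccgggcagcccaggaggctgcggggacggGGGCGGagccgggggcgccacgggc
CARD9: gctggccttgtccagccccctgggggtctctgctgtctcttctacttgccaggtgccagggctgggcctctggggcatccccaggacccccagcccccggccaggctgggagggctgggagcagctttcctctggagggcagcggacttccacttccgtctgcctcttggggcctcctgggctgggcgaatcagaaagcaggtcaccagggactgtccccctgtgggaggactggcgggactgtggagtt
BCL10: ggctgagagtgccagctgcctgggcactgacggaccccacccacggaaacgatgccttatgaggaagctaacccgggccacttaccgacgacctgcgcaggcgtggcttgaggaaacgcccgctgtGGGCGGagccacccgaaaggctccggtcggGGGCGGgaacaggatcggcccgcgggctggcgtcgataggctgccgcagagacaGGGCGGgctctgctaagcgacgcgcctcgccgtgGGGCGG
The CARD10 window held 7 GC boxes, the BCL10 window 4 and the CARD9 window 0, while 42.6% of 35116 RefSeq promoter windows of the same length held at least 1. The κB consensus, the site that NF-κB dimers bind, matched once in CARD9, at 179 bases before the start, and 0 times in CARD10 and BCL10, where 9.96% of all windows held it. TATAAA was in 10.7% of all windows and in none of the 3. RefSeq windows were matched for 7 of 9 members, without CLEC7A and CARD14.

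By the positions of GENCODE 29 (GRCh38), CLEC7A (ENSG00000172243) lies at chr12:10116777-10130258 on the minus strand, SYK (ENSG00000165025) at chr9:90801787-90898549 on the plus strand, and PLCG2 (ENSG00000197943) at chr16:81739097-81962693 on the plus strand. PRKCD (ENSG00000163932) is at chr3:53156009-53192717 on the plus strand. The scaffold genes are CARD9 (ENSG00000187796) at chr9:136361903-136373681 on the minus strand, CARD10 (ENSG00000100065) at chr22:37490362-37519542 on the minus strand and CARD14 (ENSG00000141527) at chr17:80169992-80209331 on the plus strand. BCL10 (ENSG00000142867) is at chr1:85265776-85276904 on the minus strand and MALT1 (ENSG00000172175) at chr18:58671386-58754477 on the plus strand. Exons of CARD9 share 721 bases with DNLZ on the same strand, so reads there cannot be assigned by strand and the few CARD9 reads are uncertain. On the opposite strand, exons of CARD14 share 1033 bases with an antisense transcript, AC087741.1, and 153 with SGSH, those of MALT1 share up to 625 bases with each of 3 non-coding transcripts, and those of BCL10 share 83 bases with 1. PLCG2 shares 386 and 318 bases with non-coding transcripts on its own strand. Whether the counting used strand is not given in the sources used here, so the few CARD14 reads are uncertain too.

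The libraries held 31008429 to 37624399 reads on genes. HTRA2, the targeted gene, had an FPKM (reads scaled for exon length and library size) of 7.18 to 7.44 in the knockdown libraries and 14.0 to 15.4 in the TNF-α libraries. Knockdown library 2 stood apart, with 2.95% of its reads on mitochondrial genes against 3.69% to 4.68% in the other 11. The epithelial label held for the keratins of simple epithelium: KRT18 averaged 1142 FPKM and KRT8 1115, and 0 of 7 markers of this list were near 0. Several markers of colon differentiation were at or near 0 reads. CDX2 had 0 reads in 12 of 12 libraries, and CDX1, VIL1, CDH17 and GPA33 had at most 3 reads in each. Of the 8 colon markers, CA2 had the highest mean, 10.2 FPKM. Markers of stratified epithelium all had reads in every library, with a mean of 177 FPKM for KRT17, 139 for KRT5 and 11.7 for TP63. The lowest of them, IVL, had a mean of 0.386 FPKM and 3 to 84 reads a library. Of the 12 leukocyte markers, SPI1, TYROBP, AIF1 and CD3E had at most 3 reads in every library, and PTPRC (CD45) had at most 4.

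**Figure D1:**
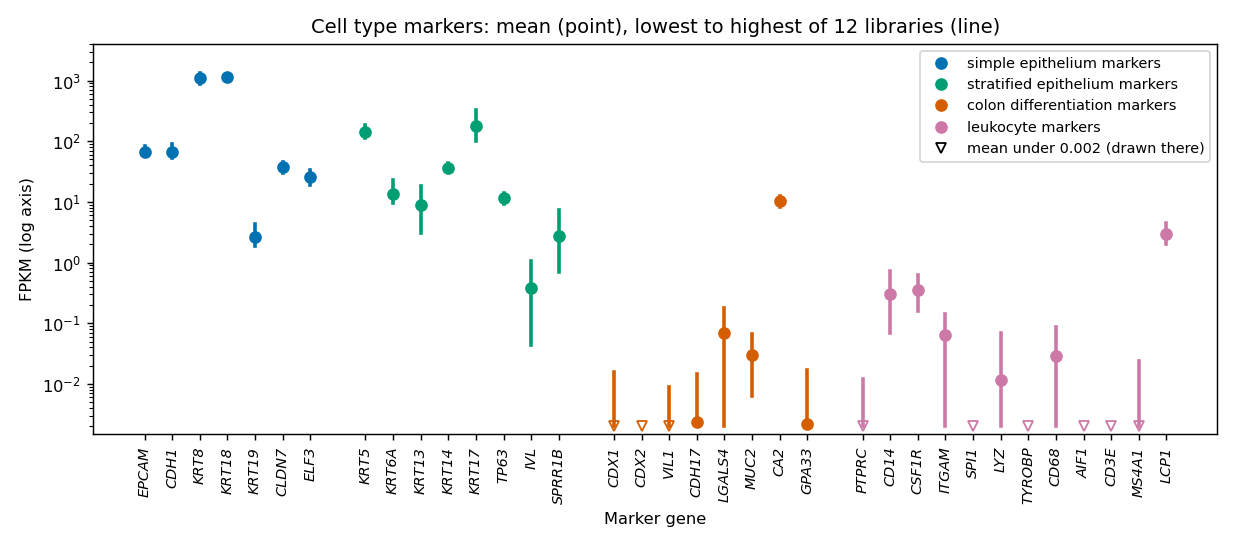
FPKM on a log axis of 35 markers, as the mean over 12 libraries (points) with the lowest and highest library (lines), coloured by list. KRT8 and KRT18 lie near the top, CDX2 is at 0 reads, the stratified markers KRT5 and KRT17 lie above 100 FPKM, and LCP1 leads the leukocyte list at 3.01 FPKM.

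CARD10 had the highest RNA level of the 3 scaffold members in 12 of 12 libraries. Mean FPKM over the 12 libraries was 8.88 for CARD10, 0.189 for CARD14 and 0.0375 for CARD9. CARD10 exceeded CARD14 by 28.8 to 95.4 times, and exceeded CARD9 by 122 to 516 times in the 11 libraries where CARD9 had a read. Over the 12 libraries the ranges of the 3 genes did not overlap. The order is among these 3 genes and does not place CARD10 within the whole CARD scaffold family. In bulk RNA, fewer cells that carry a transcript and less of it per cell cannot be told apart.

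In CARD10 the 3 medium libraries had 8.89, 9.26 and 7.78 FPKM, in replicate order as in every list of values below. The TNF-α libraries had 8.36, 8.85 and 8.46, those with 5-OH-TMT 9.52, 9.53 and 9.19, and the knockdown libraries 9.11, 8.43 and 9.18. The level was flat, between 1436 and 1914 reads a library. Of 19951 protein-coding genes, 78.2% had a lower mean FPKM than CARD10.

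In CARD9 the counts were so low that they are given as reads: 4, 0 and 14 in medium, 8, 5 and 9 with TNF-α, 17, 16 and 5 with 5-OH-TMT, and 9, 12 and 7 in the knockdown. That is 106 reads in 12 libraries. The groups overlapped, and 1 medium library had none, which allows up to 3 reads. CARD9 was 0.0271 ± 0.0331 FPKM in medium and 0.0534 ± 0.0284 with 5-OH-TMT (SD, n = 3), the lowest and the highest group mean. Summed over a group the reads were 18 in medium, with a 95% Poisson interval of 10.7 to 28.4, 22 with TNF-α (13.8 to 33.3), 38 with 5-OH-TMT (26.9 to 52.2) and 28 in the knockdown (18.6 to 40.5). These intervals cover counting error only.

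CARD14 also had few reads. It had 0.0931, 0.153 and 0.106 FPKM in medium, 0.169, 0.215 and 0.196 with TNF-α, 0.224, 0.198 and 0.319 with 5-OH-TMT, and 0.195, 0.172 and 0.223 in the knockdown, from 27 to 96 reads. Every TNF-α library lay above every medium library, and the 3 groups with TNF-α overlapped.

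Of the summed FPKM of these 3 genes alone, CARD10 took 97.5% ± 0.607 (SD, n = 12), CARD14 2.06% ± 0.580 and CARD9 0.414% ± 0.243. The CARD10 share was 97.9% to 98.8% in medium, above every library of the other 3 groups, which lay between 96.4% and 97.6%. These shares are a description and were not tested.

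Above the scaffold, the receptor CLEC7A averaged 0.653 FPKM and the kinase SYK 0.175. Of protein-coding genes, 46.5% had a lower mean than CLEC7A and 39.2% a lower mean than SYK. CLEC7A had 0.317, 0.439 and 0.541 FPKM in medium, 0.403, 0.413 and 0.467 with TNF-α. With 5-OH-TMT it had 0.624, 0.457 and 0.537 FPKM. In the knockdown it had 1.26, 1.25 and 1.13 FPKM, from 190, 189 and 172 reads. The 3 groups without the knockdown overlapped, at 46 to 92 reads, and every knockdown library lay above them.

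SYK had 0.172, 0.239 and 0.112 FPKM in medium, 0.110, 0.142 and 0.165 with TNF-α, 0.104, 0.189 and 0.219 with 5-OH-TMT, and 0.192, 0.266 and 0.195 in the knockdown. These are 19 to 50 reads a library, and medium overlapped every other group. LYN, a SRC-family kinase that can phosphorylate the same kind of motif, had 36.2 to 141 times the FPKM of SYK. ZAP70, the relative of SYK in T cells, had at most 3 reads in every library.

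PLCG2 had 0.572, 0.694 and 0.641 FPKM in medium, 0.734, 0.715 and 0.752 with TNF-α, 0.708, 0.759 and 0.742 with 5-OH-TMT, and 0.938, 0.992 and 1.06 in the knockdown. PLCG1, a related phospholipase C-γ named here after its values were seen, had 8.23 to 18 times the FPKM of PLCG2. PRKCD was well expressed, at 13.6, 14.9 and 13.3 FPKM in medium, 13.8, 13.3 and 13.2 with TNF-α, 14.1, 13.6 and 15.1 with 5-OH-TMT, and 14.7, 11.7 and 15.5 in the knockdown. Its 4 groups overlapped.

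Below the scaffold, both partners were expressed. BCL10 had 6.79, 6.30 and 7.56 FPKM in medium, 9.60, 9.86 and 10.1 with TNF-α, 7.34, 8.43 and 8.16 with 5-OH-TMT, and 10.7, 13.1 and 11.4 in the knockdown. Its TNF-α libraries lay above the medium and the 5-OH-TMT libraries and below the knockdown libraries. MALT1 had 1.42, 0.860 and 1.29 FPKM in medium, 1.36, 1.12 and 1.43 with TNF-α, 1.04, 1.10 and 1.30 with 5-OH-TMT, and 1.12, 1.42 and 1.01 in the knockdown. All 4 groups overlapped for MALT1, and BCL10 exceeded it by 4.79 to 11.3 times in FPKM.

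In the order of mean FPKM the members ran PRKCD (13.9), BCL10 (9.11), CARD10 (8.88), MALT1 (1.21), PLCG2 (0.776), CLEC7A (0.653), CARD14 (0.189), SYK (0.175) and CARD9 (0.0375). Every CARD10 value lay above every MALT1 value, and every SYK value above every CARD9 value. CLEC7A exceeded CARD14 within 12 of 12 libraries, although their ranges touched. The other neighbours overlapped and changed places in at least 1 library, so they were not ordered beyond their spread. The order is a mean over 4 groups: in the knockdown, CLEC7A averaged 1.21 FPKM, PLCG2 0.996 and MALT1 1.18.

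**Figure D2:**
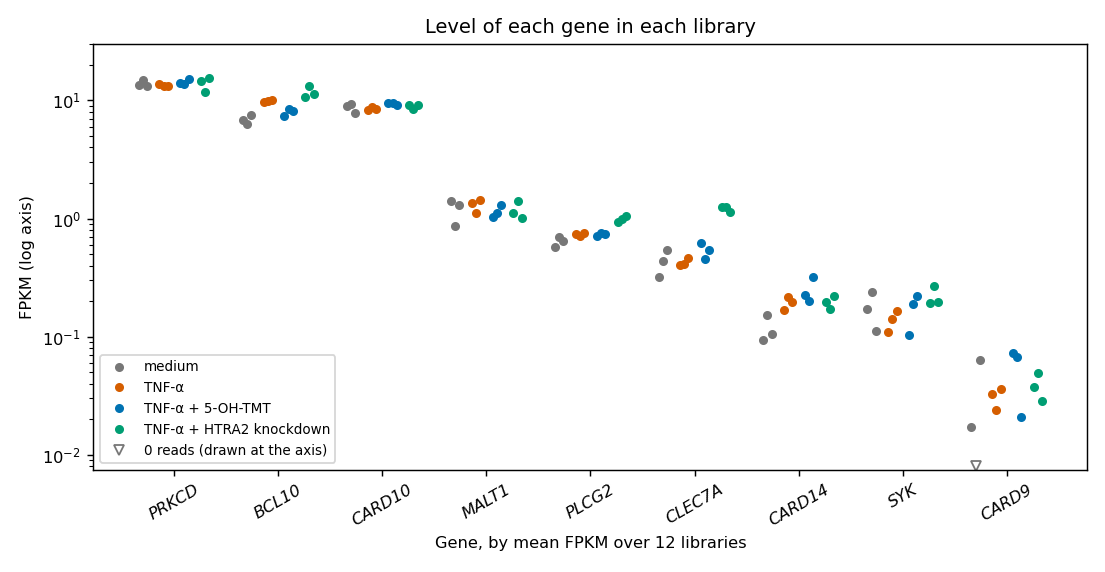
FPKM on a log axis of the 9 members in each of 12 libraries, coloured by group, with the 1 library of 0 CARD9 reads as an open triangle at the axis. PRKCD, BCL10 and CARD10 lie between 6.30 and 15.5 FPKM, and CARD14, SYK and CARD9 reach at most 0.319 FPKM.

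TNF-α against medium asked what the cytokine alone did to these genes, and BCL10 was the member that rose. Its mean was 6.88 ± 0.636 FPKM in medium and 9.85 ± 0.244 with TNF-α (SD, n = 3), a ratio of 1.43. limma gave a log2 fold change of 0.51 with a 95% interval of 0.31 to 0.72 (adjusted p = 0.00697), on the scale of log2(FPKM + 0.1). That was 1 of the 9 members past an adjusted p of 0.05, where 4.10% of the 18079 genes tested passed. Of the 9 members, 8 passed the filter on low values, all but CARD9. The study called a gene a DEG when it changed 2-fold or more with an unadjusted p up to 0.05, and named no test for that p. Applied here to the limma p and the fold change of FPKM + 0.1, that rule took in 0 members and 2.73% of all genes. The groups did not overlap for 3 of 9 members, BCL10, PLCG2 and CARD14, each higher with TNF-α, and 19.8% of all genes did not overlap in either direction. The exact permutation p was 0.1 for each of these 3, the smallest that 3 libraries against 3 can give.

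The scaffolds did not pass. The log2 fold change of CARD10 was -0.01 with a 95% interval of -0.17 to 0.15, and that of CARD14 was 0.44 (-0.12 to 1.0, adjusted p = 0.494 by limma). With other pseudocounts and with voom the CARD14 value ran from 0.095 to 0.75, and it passed in 0 of 9 other settings. CARD9, from the fit without the filter, had 0.07 (-0.38 to 0.52) here, 0.21 (-0.24 to 0.66) with 5-OH-TMT and 0.08 (-0.37 to 0.53) in the knockdown. The added 0.1 exceeds the mean of CARD9, 0.0375 FPKM, which pulls these values and intervals toward no change. In other settings CARD9 ran from 0.0058 to 1.16 here, 0.031 to 0.57 with 5-OH-TMT and -0.070 to 0.27 in the knockdown, and passed in none. The interval of CARD10 was narrow, while that of CARD14 was wide. The median log2 fold change of the members was 0.07, and that of all genes was 0.00.

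With 5-OH-TMT against TNF-α alone, 0 of 9 members passed an adjusted p of 0.05 by limma, here and in every other setting tried, and 0.0387% of all genes did. At an unadjusted p under 0.05 there was 1 of 9 members, BCL10, where 20.1% of all genes passed. The BCL10 mean was 7.97 ± 0.568 FPKM with 5-OH-TMT (SD, n = 3), lower than with TNF-α in 3 of 3 libraries, with a log2 fold change of -0.30 and a 95% interval of -0.51 to -0.10 (adjusted p = 0.129). CARD10 was higher in 3 of 3 libraries, by 0.14 on the log2 scale (-0.03 to 0.30, adjusted p = 0.331). The groups did not overlap for these 2 members, where 31.8% of all genes did not overlap. No member qualified as a DEG, and 1.50% of all genes did. The 95% interval of the log2 fold change ran from -0.28 to 0.29 for PLCG2 and from -0.13 to 0.67 for CLEC7A.

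In the HTRA2 knockdown with TNF-α, CLEC7A was the member that rose. Its mean was 0.428 ± 0.0343 FPKM with TNF-α and 1.21 ± 0.0737 in the knockdown (SD, n = 3), a ratio of 2.83, from 189 and 551 reads in all. limma gave a log2 fold change of 1.31 with a 95% interval of 0.91 to 1.72 (adjusted p = 0.000558). That was 1 of 9 members, where 17.4% of all genes passed, and it was the 1 member that qualified as a DEG, where 4.23% of all genes did. The groups did not overlap for 4 of 9 members, CLEC7A, SYK, PLCG2 and BCL10, each higher in the knockdown, and 34.0% of all genes did not overlap.

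Some leukocyte markers were also higher in the knockdown than with TNF-α alone. The summed FPKM of the 12 markers was 2.98 to 3.51 with TNF-α and 4.94 to 5.94 in the knockdown, most of it LCP1, whose mean went from 2.86 to 4.22. The 3 markers that could be tested all rose, where 17.4% of all genes passed in either direction. CD14, a lipopolysaccharide co-receptor, rose by 1.41 on the log2 scale (adjusted p = 0.0163 by limma). CSF1R, the receptor of a macrophage growth factor, rose by 1.28 (adjusted p = 0.00127) and LCP1, an actin-bundling protein, by 0.54 (adjusted p = 0.0035). CD14 averaged 0.397 FPKM in medium, 0.0946 with TNF-α and 0.443 in the knockdown, and CSF1R 0.328, 0.190 and 0.604. Both were thus lower with TNF-α than in medium, without passing (adjusted p = 0.061 for CD14 and 0.2 for CSF1R by limma). LCP1 went the other way, from 2.20 to 2.86 FPKM (adjusted p = 0.0817 by limma). ITGAM and CD68, under the filter, were also higher, from 0 to 0.0625 and from 0.00439 to 0.0501 FPKM. CLEC7A averaged 0.432 FPKM in medium and 0.428 with TNF-α. CD68 and LYZ had means of at most 0.0501 FPKM with TNF-α and in the knockdown. SPI1, TYROBP and AIF1 stayed at or under 3 reads and PTPRC at or under 4 in each library. The summed markers of stratified epithelium lay between 318 and 320 FPKM with TNF-α and between 504 and 609 in the knockdown. Of these markers 5 of 8 rose and TP63 fell, beside the same 17.4% of all genes. In the same comparison 4 of 7 simple epithelium markers rose and 0 fell. CA2, the 1 colon marker that could be tested, rose by 0.40. The 6 fibroblast markers summed to between 1.0 and 1.32 FPKM with TNF-α and between 2.63 and 3.24 in the knockdown, and this was nearly all COL1A1, which rose by 1.23 from a mean of 1.17 to 2.89 FPKM. The other 5 had means of at most 0.014 FPKM in both groups. The part of these shifts in the CLEC7A result was not tested. With each of the 6 libraries left out in turn, knockdown library 2 included, CLEC7A stayed past the threshold in 6 of 6 fits, with a log2 fold change of 1.28 to 1.37. It also passed in 9 of 9 other settings, where the log2 fold change ran from 0.63 to 1.49. The 0.63 came with a pseudocount of 1, above the mean FPKM of CLEC7A, and lies under the 2-fold of the DEG rule.

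The other members did not pass. The log2 fold change of PLCG2 in the knockdown was 0.39 with a 95% interval of 0.11 to 0.68 (adjusted p = 0.0548), and it passed in 3 of 9 other settings. BCL10 had 0.24 (0.04 to 0.45, adjusted p = 0.0967) and SYK 0.41 (-0.24 to 1.06, adjusted p = 0.387). CARD10 had 0.06 (-0.11 to 0.22) and CARD14 0.02 (-0.55 to 0.58). This contrast and the one with 5-OH-TMT share the TNF-α libraries, so BCL10, which was lower with 5-OH-TMT and higher in the knockdown, was set against the same 3 values in both.

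**Figure D3:**
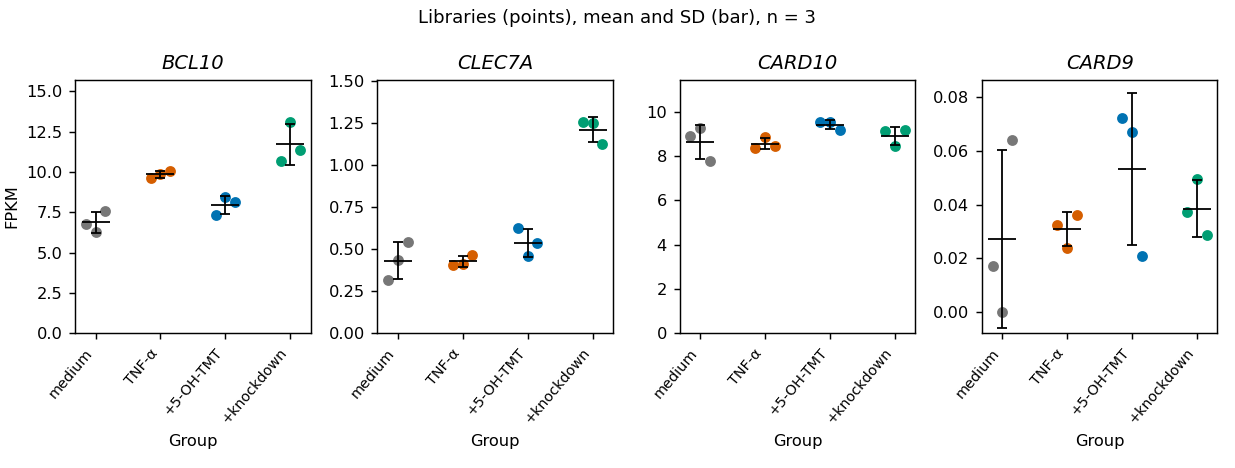
FPKM of BCL10, CLEC7A, CARD10 and CARD9 by group, with the 3 libraries as points and the mean with its SD as bars, on linear axes of different height. BCL10 steps up from medium to TNF-α, CLEC7A stands out in the knockdown, CARD10 stays between 7.78 and 9.53 FPKM, and CARD9 lies between 0 and 0.0721 FPKM.

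**Figure D4:**
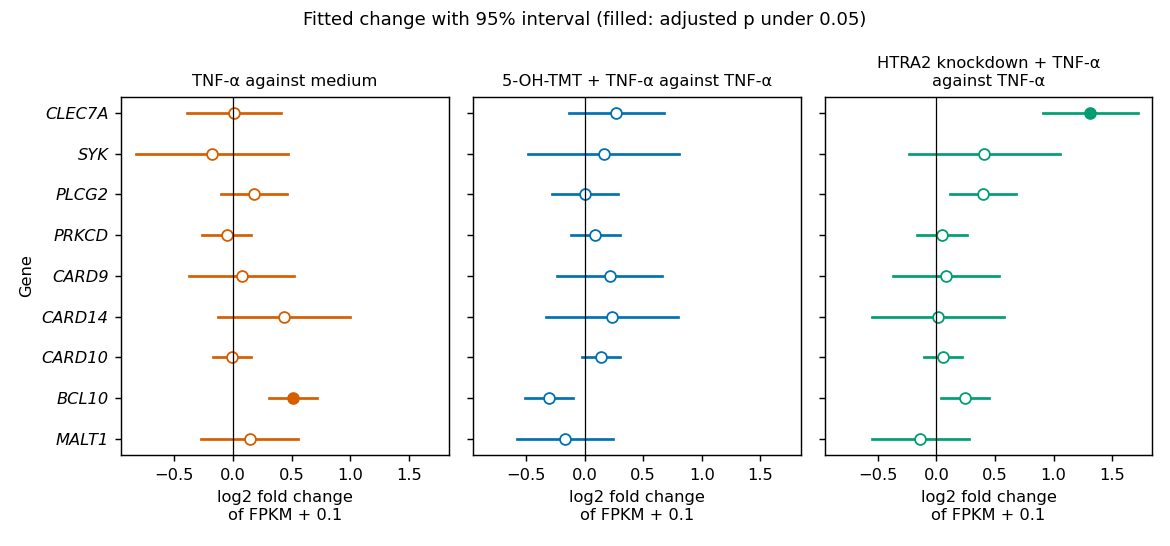
Log2 fold change of FPKM + 0.1 with its 95% interval for the 9 members in 3 comparisons, filled where the adjusted p is under 0.05. BCL10 with TNF-α (0.51) and CLEC7A in the knockdown (1.31) are the 2 filled points, and the intervals of CARD14 and SYK are the widest. The added 0.1 exceeds every CARD9 value (at most 0.0721 FPKM), which narrows the CARD9 intervals.

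The neighbours of the members on the pathway were taken from lists by role. Of 14 C-type lectin receptors and signalling adaptors, of which some couple to tyrosine motifs as Dectin-1 does, 1 could be tested, CLEC7A itself. CLEC6A (Dectin-2), CLEC9A, CLEC1B, CD209, MRC1, CLEC4A, CLEC5A and the adaptor TYROBP had at most 3 reads in every library, so 8 of 14 were at or under that floor. The other 5, whose highest library had 5 reads or fewer, were under the filter on low values.

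Of 13 proximal kinases, VAV exchange factors and phospholipases, 2 are members, and 11 could be tested. With TNF-α 1 rose and 1 fell, where 4.10% of all genes passed in either direction. LYN rose by 0.80 (adjusted p = 1.18e-05 by limma), and VAV3, an exchange factor for small GTPases, fell by 1.0 (adjusted p = 0.000307). In the knockdown 2 rose and 1 fell, where 17.4% of all genes passed in either direction: LYN rose by 0.71, VAV3 rose by 0.84, and LCK, a T cell kinase, fell by 1.41 (adjusted p = 0.00171). With 5-OH-TMT 0 passed, and 1 of 11 had an unadjusted p under 0.05 (20.1% of all genes). The median of the list was -0.02, 0.06 and 0.19 in the 3 comparisons.

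Of 10 receptors and adaptors upstream of CARD10 or CARD14, 9 could be tested and EGFR had the highest mean, 43.2 FPKM. With TNF-α EGFR rose by 0.66 (adjusted p = 0.000577 by limma) and F2R, the thrombin receptor, fell by 0.49 (adjusted p = 0.00264). In the knockdown LPAR1, a lysophosphatidic acid receptor, rose by 0.31, IL17RC, a subunit of the interleukin-17 receptor, rose by 0.35, and LPAR3 fell by 0.32. AGTR1, the angiotensin receptor, had at most 3 reads in every library. Called were 2 of 9 with TNF-α and 3 of 9 in the knockdown, where 4.10% and 17.4% of all genes were. With 5-OH-TMT 0 of 9 passed, and 4 had an unadjusted p under 0.05 (20.1% of all genes).

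Below MALT1, 16 of 16 effectors toward TAK1 and IKK could be tested, and SHARPIN, a subunit of the linear ubiquitin ligase, had the highest mean, 48.1 FPKM. With TNF-α 1 rose, CFLAR, an inhibitor of caspase-8, by 0.69 (adjusted p = 0.00237 by limma). In the knockdown CFLAR rose by 0.97 and TAB3, an adaptor of TAK1, by 0.38, while UBE2N, the conjugating enzyme for K63-linked ubiquitin, fell by 0.44. Called were 1 of 16 with TNF-α and 3 of 16 in the knockdown, where 4.10% and 17.4% of all genes were. With 5-OH-TMT 0 passed, and 6 of 16 had an unadjusted p under 0.05 (20.1% of all genes).

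Of 12 known substrates of the MALT1 protease, 6 rose and 0 fell with TNF-α, where 4.10% of all genes passed in either direction. Of the 12, 3 are members, and BCL10, given above, is 1 of the 6. Some others, TAB3 among them, are also in the effector list above, so the rise of TAB3 in the knockdown counts in both lists. TNFAIP3 (A20), which removes ubiquitin chains, rose by 4.43 on the log2 scale and RELB, an NF-κB subunit, by 4.18 (adjusted p = 9.18e-09 for each by limma). ZC3H12A (Regnase-1), an RNase, rose by 1.01 and CYLD, a deubiquitinase, by 0.83. In the knockdown 5 rose and 0 fell, where 17.4% of all genes passed, among them ZC3H12A by 1.28, TNFAIP3 by 1.02, N4BP1 by 0.59 and CYLD by 0.52. With 5-OH-TMT 0 of 12 passed and 4 had an unadjusted p under 0.05 (20.1% of all genes). The median of the list was 0.30, -0.01 and 0.29 in the 3 comparisons, where the median of all genes was 0.00 in each. These are RNA levels, which do not show cleavage by MALT1.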

How the data were processed

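The 9 members and the gene lists were chosen with earlier results of these data known. Per the labels and the study's methods, mRNA was captured with poly-T and sequenced by a company. The submitters' processing notes name CASAVA 1.8, HISAT2 2.0.4 and HTSeq 0.9.1 with hg38. The authors deposited 1 FPKM value per gene and library, whose scaling is not given in the sources used here. Whole reads were recovered from the FPKM with the deposited gene length, and 100% of values were within 0.05 of a whole number. No source says that libraries came from separate cultures, so p-values may measure technical spread alone.

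In R 4.3.3, limma 3.58.1 modelled log2(FPKM + 0.1) for 18079 genes averaging 0.1 FPKM or more, with 1 mean per group, a trended eBayes and 8 residual degrees of freedom. Tests were two-sided, with Benjamini-Hochberg adjustment over all genes. CARD9 was taken from the same fit without that filter. An exact permutation test was run on each member. Named were the 9 members, and from each list the genes past an adjusted p of 0.05 (at most 4 per comparison, by size of change), the gene with the highest mean and those at or under 3 reads in every library. Some genes of the lists and of the naming rule are not reported here and stay out of the list counts. Promoters came from RefSeq. Alternatives were other pseudocounts, filters, scalings, voom on the recovered reads, 2-group fits, no trend, a replicate block and leaving out each library.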

Additional observations from a re-analysis of the deposited data

How the results depend on the processing

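BCL10 stayed past an adjusted p of 0.05 (limma) with TNF-α in 10 of 10 settings (adjusted p 0.00191 to 0.0346) and in 6 of 6 fits that left out a library. CLEC7A stayed past it in the knockdown in 9 of 9 settings (3.26e-05 to 0.0043). The members called in the knockdown went from 1 to 2, with PLCG2 added, at a pseudocount of 1, with voom and without trend, and to 0 at a mean FPKM of at least 1, where 4 members, without CLEC7A, were tested. Over all genes, the TNF-α count of 742 became 392 in a fit to the 2 groups. The 5-OH-TMT count of 7 became 3 at a pseudocount of 1, 127 at a mean FPKM of at least 1, 4 after quantile normalization, 374 with voom, 911 in a 2-group fit and 1 without trend, and 1 to 5 when a library was left out (1 without TNF-α library 3 or 5-OH-TMT library 3, 2 without TNF-α library 2, 3 without library 1 of either group). The knockdown count of 3152 became 2015 to 3337 when a library was left out, the lowest being 2015 without knockdown library 1 and 2062 without TNF-α library 2. The replicate block gave 1 call with 5-OH-TMT. It kept the member counts of 1, 0 and 1. Deviations of same-numbered libraries over all genes tested had correlations of -0.05 to 0.04. No pairing by number was seen, which does not show that the libraries were unpaired. By reads in place of FPKM, the shares of the 3 scaffolds were 96.5% for CARD10 and 3.01% for CARD14. Changes of sign occurred in values that passed no test. With TNF-α, CLEC7A went to -0.0014 at a pseudocount of 1, and leaving out libraries gave -0.16 to 0.15 for CLEC7A, -0.085 to 0.27 for CARD9, -0.084 to 0.040 for CARD10 and -0.057 to 0.27 for MALT1. With 5-OH-TMT, PLCG2 ran from -0.015 to 0.030. In the knockdown, PRKCD ran from -0.033 to 0.17 and CARD14 from -0.045 to 0.078, and quantile normalization gave -0.070 for CARD9 and -0.067 for CARD14. The cause was not tested. Depth limits CARD9, at 0 to 17 reads a library.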

Other observations

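Over the 12 libraries, the genes whose FPKM followed CLEC7A most closely by Pearson's r, among 11185 genes averaging 1 FPKM or more, were FOXC1 (r = 0.97), a forkhead transcription factor, CTSL (0.97), a lysosomal protease, NECTIN4 (0.97), an adhesion molecule, ALOX5 (0.97), the 5-lipoxygenase, and TESK2 (0.96), a kinase. For CARD10 the closest were TMEM79 (0.94), AACS (0.94), CSRP1 (0.94), MED24 (0.92) and PPP4C (0.92), among 11184 genes. The 12 points share groups of 3 libraries, and the values describe these libraries.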
